A study of Mus musculus with 16 samples.

Results

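The 6 chains of collagen IV, Col4a1 to Col4a6, are described here in mouse granulosa cells (mGCs). They were picked by gene symbol from the deposited count tables and are 6 of 57010 genes, each with reads in all 16 libraries. The study isolated mGCs from female ICR mice of an endometriosis (EM) model, in which endometrium of an estradiol-treated donor was stitched to the bowel mesentery, and from sham-operated mice (Con). The recipients kept their ovaries and were given estradiol and then a washout period, and both groups went through ovulation induction. Fresh cells of 5 Con and 5 EM mice gave the Con-mGC and EM-mGC libraries, 1 per mouse. In a separate experiment, mGCs of 6 EM mice were divided, cultured in DMEM/F12 with fetal bovine serum for 24 h, and then given PBS or 100 nM 14, 15-EET for another 24 h, with 3 libraries of each. 14, 15-EET is an epoxide made from arachidonic acid. The methods describe these as 3 paired replicates from the 6 mice and do not say which mice went into which library.

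Collagen IV is the network-forming collagen of basement membranes, secreted as trimers that join at their ends into a sheet. Its chains combine in a fixed way: the Col4a1 and Col4a2 products form the trimer found in nearly all basement membranes, those of Col4a3, Col4a4 and Col4a5 form the trimer known from the kidney glomerulus and affected in Alport syndrome, and those of Col4a5 and Col4a6 form another. In the ovary, collagen IV lies in the basal lamina that encloses the granulosa layer and in the small matrix deposits that granulosa cells place between themselves before ovulation.

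The genes lie as 3 pairs, each with its members head to head on opposite strands. In the coordinates deposited with the counts (GRCm39 in the submitters' processing notes), Col4a1 (ENSMUSG00000031502) runs on the minus strand of chromosome 8 from 11248423 to 11362826. Col4a2 (ENSMUSG00000031503) starts 22 bases inside its 5′ end and runs on the plus strand from 11362805 to 11499287. On chromosome 1, Col4a4 (ENSMUSG00000067158, minus strand, 82426144 to 82564570) and Col4a3 (ENSMUSG00000079465, plus strand, 82564642 to 82699780) are 71 bases apart. On chromosome X, Col4a6 (ENSMUSG00000031273, minus strand, 139948399 to 140257072) and Col4a5 (ENSMUSG00000031274, plus strand, 140258381 to 140472230) are 1308 bases apart. Other genes annotated inside these spans had at most 43 reads in a library. How reads shared with them were treated is not known, so these counts do not bound the reads lost by the chains. The libraries keep the strand, but the strand setting of the counting is not given in the sources used here, so reads of the 22 bases shared by Col4a1 and Col4a2 cannot be assigned with certainty.

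The stretches between or across the starts of both closely spaced pairs are shown because the members of each pair could share a promoter there. They are RefSeq sequence of build GRCm38.p6, written 5′ to 3′. Capitals mark the GC box GGGCGG, searched on both strands together with CCAAT and TATAAA.
Col4a1 and Col4a2 starts, chr8:11312805-11312826, Col4a2 (plus) strand: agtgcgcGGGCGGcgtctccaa
Col4a4 to Col4a3 starts, chr1:82586850-82586920, Col4a4 (minus) strand: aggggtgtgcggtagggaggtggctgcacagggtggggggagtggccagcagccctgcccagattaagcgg
The first stretch is 72.7% G or C and holds a GC box, whereas the second is 69.0% G or C and holds none of these letters. Promoter windows from 250 bases before to 50 after the start were found for 5 of the 6 genes, Col4a3 being the exception. GGGCGG occurred once in the windows of Col4a1, Col4a5 and Col4a6, in 3 places in that of Col4a2 and in 0 places in that of Col4a4, and 35.7% of all 32851 windows hold it. The match of Col4a1 and 1 of the 3 of Col4a2 are the same GC box, the one in the shared stretch above. CCAAT occurred once each in Col4a1, Col4a2 and Col4a5 and in neither Col4a4 nor Col4a6 (37.4% of all windows), and TATAAA in 0 of the 5 windows (13.6% of all). These matches are letters in a window and not binding sites.

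Total counts were 14229123 to 15999234 per fresh library and 21384686 to 29482826 per cultured library. EM-mGC-3 had a mitochondrial share of 21.8%, against 6.76% to 11.1% in the other fresh libraries and 1.18% to 1.64% in the cultured ones. Con-mGC-1 had reads in 22071 genes and the other fresh libraries in 25080 to 27642. All 11 granulosa markers were present in fresh cells. In the PBS libraries they ranged widely, with the aromatase gene Cyp19a1 at 0 to 0.374 CPM (counts scaled to a common library size) and the FSH receptor gene Fshr at 4.74 to 5.57 CPM, while the granulosa transcription factor gene Foxl2 was at 138 to 157 CPM and the inhibin gene Inha at 2529.8 to 3049 CPM.

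Levels of different chains can be compared only per length, here as RPKM, the CPM divided by the exon length in kilobases. Col4a1 was highest in each library, followed by Col4a2, Col4a5 and Col4a6. Col4a4 and Col4a3 came last, in that order in 14 of 16 libraries and in the opposite order in PBS-2 and EET-1. In the Con-mGC libraries, Col4a1 was at 79.9 ± 7.12 RPKM (SD, n = 5) and Col4a2 at 48.0 ± 4.26 RPKM. Col4a5 was at 19.7 ± 4.51 RPKM and Col4a6 at 5.47 ± 0.799 RPKM. Col4a4 was at 1.35 ± 0.217 RPKM and Col4a3 at 0.515 ± 0.137 RPKM. The pair of the common trimer thus took 82.6 ± 2.98% of the summed RPKM of the 6 chains in Con-mGCs, the Col4a5 and Col4a6 pair 16.2 ± 2.89%, and the Col4a3 and Col4a4 pair 1.22 ± 0.270%. Col4a5, which joins Col4a3 and Col4a4 in a trimer, had an RPKM 9.28 to 21.0 times that of Col4a4 in these 5 libraries.

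The mean composition differed between the 4 groups of libraries, which was not tested, and Con-mGC and EM-mGC libraries overlapped. The Col4a3 and Col4a4 share ran from 0.886 to 1.55% in Con and from 0.398 to 1.01% in EM libraries. The Col4a1 and Col4a2 share ran from 78.6 to 86.2% and from 80.3 to 87.3%. In EM-mGCs the Col4a3 and Col4a4 pair took 0.691 ± 0.225% of the summed RPKM (n = 5), in PBS libraries 0.380 ± 0.0418% (n = 3) and in EET libraries 0.221 ± 0.0151% (n = 3). The Col4a1 and Col4a2 pair took 84.5 ± 2.65% in EM-mGCs, 92.5 ± 0.234% in PBS and 92.1 ± 0.379% in EET libraries. Both cultured groups thus lay above all fresh libraries in that share, whose highest value was 87.3%. The summed RPKM of the 6 chains was 155 ± 13.2 in Con-mGCs and 153 ± 43.8 in EM-mGCs, against 1533 ± 96.4 in PBS and 1597 ± 65.7 in EET libraries.

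**Figure D1:**
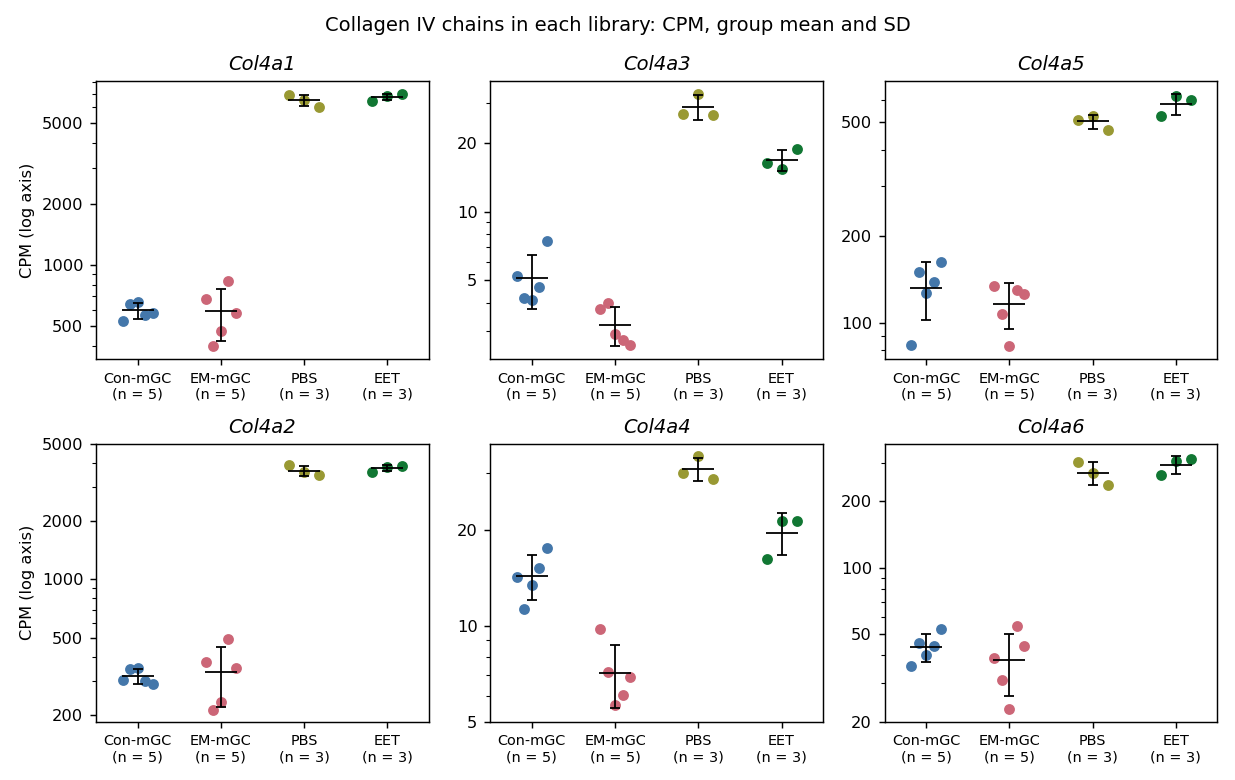
TMM-normalized CPM (log axis, a scale of its own in each panel) of the 6 collagen IV chains in each library (points), with the group mean (horizontal mark) and SD (bars) for 5 Con-mGC, 5 EM-mGC, 3 PBS and 3 EET libraries. The cultured points lie above the fresh ones except for Col4a4, whose EET-1 library (16.1 CPM) lies under Con-mGC-5 (17.6 CPM), and only Col4a3 and Col4a4 show separate Con-mGC and EM-mGC points and lower EET than PBS points.

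The comparison of EM with Con mice asks how mGCs of mice with endometriosis differ from those of sham-operated mice. None of the 6 chains passed the test, and the 2 genes of the rare pair had the lowest values relative to Con. Col4a4 was at 14.2, 11.3, 13.4, 15.2 and 17.6 CPM in Con-mGC-1 to Con-mGC-5 and at 9.74, 7.14, 5.66, 6.06 and 6.91 CPM in EM-mGC-1 to EM-mGC-5. Each EM library thus lay under each Con library. The log2 fold change of Col4a4 was -1.02 (SE 0.18, 95% interval -1.41 to -0.63), or 2.03-fold lower in EM, with an adjusted p of 0.207 from edgeR's quasi-likelihood test. DESeq2 gave the same gene an adjusted p of 0.00016, so the call depends on the tool.

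Col4a3 was at 5.22, 4.21, 4.10, 4.68 and 7.44 CPM in the Con libraries and at 3.74, 3.99, 2.91, 2.75 and 2.60 CPM in the EM libraries. The groups did not overlap, but the lowest Con and the highest EM library were close. Its log2 fold change was -0.69 (SE 0.23, 95% interval -1.18 to -0.19, adjusted p = 0.449 from edgeR and 0.189 from DESeq2). The values rest on few reads, 38 to 136 per fresh library for Col4a3 and 74 to 321 for Col4a4. Of all 17229 genes tested, 0.743% lay lower in EM without overlap and 0.993% higher, 4.22% had an unadjusted p under 0.05 from edgeR and were lower, and 9.44% had one in either direction. At the adjusted threshold 0% of genes were called higher and 0% lower with edgeR, and 0.241% were called lower with DESeq2, which calls 1 of the 6 chains. By its unadjusted p of 9.2e-05 from edgeR, Col4a4 stood at rank 7 of the 17229 genes.

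The other 4 chains did not separate the groups. Col4a1, at 532, 642, 660.04, 567 and 582 CPM in the Con libraries, was at 678, 397, 471, 832 and 583 CPM in the EM libraries, so that EM mice lay on both sides of all Con mice. Its log2 fold change was -0.02 (95% interval -0.42 to 0.38), and that of Col4a2 was 0.06 (-0.38 to 0.50). Col4a2 ran from 290.3 to 352 CPM in Con and from 214 to 492 CPM in EM libraries, Col4a5 from 83.4 to 162 and from 82.5 to 134 CPM, and Col4a6 from 35.7 to 52.7 and from 22.9 to 54.3 CPM. The groups overlapped in each of them. Col4a5 had a log2 fold change of -0.19 (-0.59 to 0.20) and Col4a6 one of -0.20 (-0.63 to 0.24), with adjusted p from 0.745 to 0.981 over these 4 chains in edgeR. The median over all genes tested was -0.01, and over the 6 chains it was -0.20, with 5 of 6 negative.

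The EM mice were more variable than the Con mice in the common chains. The coefficient of variation of CPM was 8.90% in Con and 29.0% in EM libraries for Col4a1, and 8.86% and 34.1% for Col4a2. It was 14.6% and 31.6% for Col4a6 and 16.1% and 22.4% for Col4a4, but 22.9% and 18.4% for Col4a5 and 26.6% and 19.6% for Col4a3. EM-mGC-4 was highest in Col4a1, Col4a2 and Col4a6, and EM-mGC-2 or EM-mGC-3 lowest. A wider range in EM was also seen in the sums of most other lists. Granulosa markers were at 13589 to 18020 CPM in Con and 7465 to 24228 CPM in EM libraries. Processing genes were at 4018 to 4241 and 3543 to 4644 CPM, and basement membrane partners at 3531 to 3972 and 2865 to 4175 CPM. Summed breakdown enzymes did not show it, at 312 to 445 CPM in Con and 305 to 418 CPM in EM libraries. Neither did summed receptors, at 834 to 990.4 and 907 to 1057.5 CPM. These differences in spread were not tested.

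The difference in the rare pair was of like size without the libraries that stand apart. Without EM-mGC-3, with its high mitochondrial share, the log2 fold change of Col4a4 was -0.95 and that of Col4a3 was -0.66. Without Con-mGC-1, with few genes detected, they were -1.02 and -0.67. Over all such fits with 1 library omitted, Col4a4 stayed between -1.16 and -0.94 and Col4a3 between -0.78 and -0.51.

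Markers of vessel and stroma cells were also lower in EM. Endothelial markers were negative in 10 of 10 genes (median log2 fold change -0.46), and their summed level was 200.3 to 243 CPM in Con and 113 to 212 CPM in EM libraries. Theca and stroma markers were negative in 8 of 10 (median -0.41), with summed levels of 1723 to 1896 CPM in Con and 934 to 1598 CPM in EM libraries. Mural cell markers were negative in 6 of 8 (median -0.29), with sums of 266 to 400 CPM and 150 to 326 CPM. No marker in these lists was at 0 in fresh cells. None passed the test, where 0% of all genes tested passed with edgeR. The lowest values were those of the endothelial receptor gene Tie1 (-0.71), of Col1a1 (-0.96) and of the smooth muscle myosin gene Myh11 (-0.96). In these bulk libraries, fewer cells of a type and less RNA per cell cannot be told apart. The part of these cells in the Col4a3 and Col4a4 values was not tested.

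Granulosa markers had a median log2 fold change of -0.05, with the estrogen receptor gene Esr2 at -0.54, and luteal markers one of 0.18, with the prostaglandin F receptor gene Ptgfr at 0.79. Leukocyte markers were positive in 8 of 10 (median 0.31), S100a8 the highest at 3.43, and their summed level was 174 to 356 CPM in Con and 262 to 650.2 CPM in EM libraries. Surface epithelium markers had a median of -0.01, with Muc16 at -0.52, and oocyte markers one of -0.27, with Nlrp5 at -0.43. None of the tested genes of these 5 lists passed with edgeR, where 0% of all genes tested did.

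The genes that work with collagen IV also held no call in EM against Con, where 0% of all 17229 genes tested were called with edgeR. Among 23 tested genes for processing, secretion and crosslinking, 10 were positive and 13 negative, and the value farthest from 0 was that of Pxdn, the peroxidase that crosslinks collagen IV ends, at -0.46 (adjusted p = 0.510 from edgeR). Of 22 basement membrane partners, 17 were negative (median -0.32), with the laminin gene Lamb3 lowest at -0.82. Lamb3 was at a low level, with a mean of 0.76 CPM in Con and 0.42 CPM in EM libraries. Collagen IV receptors had a median of -0.05 over 11 genes, with the integrin gene Itgb3 at 0.68. Breakdown enzymes had a median of -0.09 over 11, with the gelatinase gene Mmp9 at 1.86, and their 7 inhibitors one of 0.17, with Timp1 at 0.84.

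**Figure D2:**
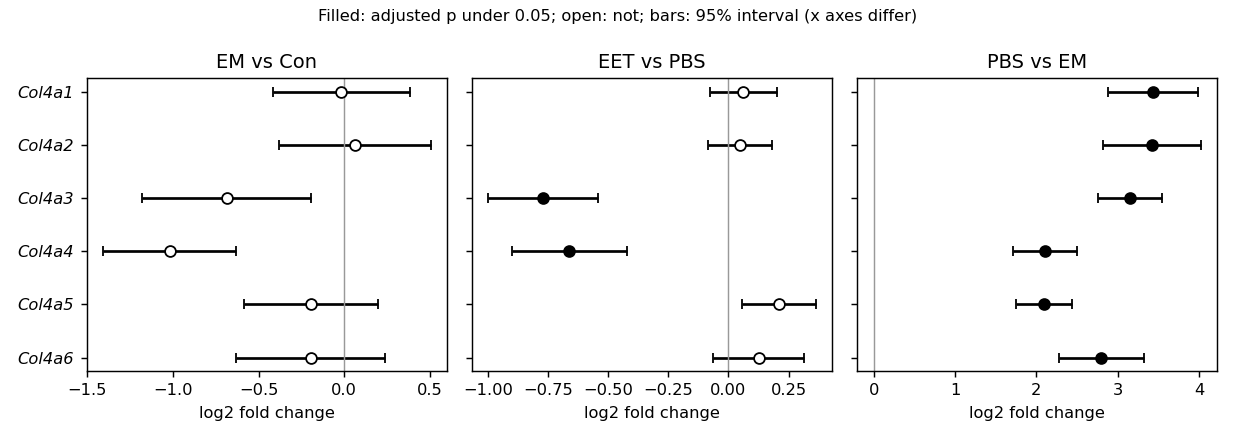
Log2 fold change (x axis, a scale of its own in each panel) of each chain in EM against Con, EET against PBS and PBS against EM libraries, with the 95% interval (bars) and filled points for an adjusted p under 0.05 from edgeR. Col4a3 and Col4a4 are at -0.69 and -1.02 in the first panel and at -0.77 and -0.66 in the second, where they are the filled points, and all 6 chains lie at 2.10 or above in the third.

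The comparison of EET with PBS asks what 14, 15-EET alters in cultured mGCs of EM mice. The 2 genes of the rare pair fell and the other 4 chains did not pass the test. Col4a3 was at 26.9, 32.9 and 26.7 CPM in PBS-1 to PBS-3 and at 16.3, 15.5 and 18.9 CPM in EET-1 to EET-3. All 3 EET libraries lay under all 3 PBS libraries, and its means were 28.8 ± 3.55 and 16.9 ± 1.77 CPM (SD, n = 3 each). Col4a3 fell by 0.77 on the log2 scale (SE 0.10, 95% interval -0.998 to -0.543), or 1.71-fold (adjusted p = 0.00362 from edgeR).

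Col4a4 was at 30.2, 34.0 and 28.9 CPM in the PBS libraries and at 16.1, 21.3 and 21.4 CPM in the EET libraries. The groups were again separate. It fell by 0.66 on the log2 scale (SE 0.11, 95% interval -0.90 to -0.42), or 1.58-fold (adjusted p = 0.0109 from edgeR). Reads behind these values numbered 357 to 750 per library for Col4a3 and 413 to 774 for Col4a4. Among the 15050 genes tested, 0.724% were called lower and 0.498% higher in EET, and 9.23% lay lower and 8.06% higher without overlap. By unadjusted p from edgeR, Col4a3 stood at rank 34 and Col4a4 at rank 81. The call of Col4a4 was lost when EET-3 was omitted, though its fall was not smaller. Its log2 fold change was then -0.73 with an adjusted p of 0.0545 from edgeR, and 48 genes were called in all, against 184 with each library kept. DESeq2 on all libraries gave Col4a4 an adjusted p of 7.99e-06. Col4a3 kept an adjusted p between 0.00125 and 0.0334 when any 1 library was omitted (edgeR).

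The more abundant chains were at like levels with and without EET. Col4a1 was at 6895, 6532 and 6049.7 CPM in the PBS libraries and at 6466, 6852 and 6944 CPM in the EET libraries, which overlap. Its log2 fold change was 0.06 (95% interval -0.08 to 0.20), and that of Col4a2 was 0.05 (-0.09 to 0.18). Both intervals are narrow and include 0. Col4a2 ran from 3441 to 3873 CPM with PBS and from 3581 to 3854 CPM with EET, and Col4a6 from 238 to 302 and from 263 to 313 CPM. Col4a6 had a log2 fold change of 0.13 (-0.06 to 0.32). Col4a5, shared by both of the rarer trimers, was at 511, 528 and 471 CPM with PBS and at 525, 619 and 597 CPM with EET, a log2 fold change of 0.21 (0.06 to 0.36, adjusted p = 0.220 from edgeR). With no filter on low counts the adjusted p of Col4a5 was 0.00664, so its call depends on the filter. The RPKM of Col4a5 was 24.6 to 26.7 times that of Col4a4 in PBS libraries and 44.2 to 51.3 times in EET libraries. The difference between these chains was not tested.

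Among the genes around collagen IV, 2 were called with EET, both of them basement membrane partners (2 of 21 tested rose, where 0.498% of all genes were called higher). Col18a1, a collagen of vessel and epithelial basement membranes, was at a mean of 6.36 CPM with PBS and 10.6 CPM with EET (log2 fold change 0.74, adjusted p = 0.00647 from edgeR), and the calcium-binding matrix gene Smoc1 was at 24.9 and 31.8 CPM (0.35, adjusted p = 0.0410 from edgeR). None of the 23 processing genes, 10 receptors, 9 breakdown enzymes and 7 inhibitors tested passed. The values farthest from 0 in these lists were Colgalt2 at -0.85, the integrin gene Itga2 at -0.54, Mmp12 at 0.61 and Timp4 at 0.57. Colgalt2 and Mmp12 were at low levels, with medians of 0.877 and 0.483 CPM with PBS and 0.563 and 0.665 CPM with EET. The list medians were -0.04 for processing, -0.01 for partners and receptors, -0.17 for breakdown and 0.05 for inhibitors, where that of all genes tested was 0.00.

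Summed endothelial, stroma and mural cell markers overlapped between the PBS and EET libraries. Summed endothelial markers were at 5.82 to 7.25 CPM with PBS and 6.50 to 6.92 CPM with EET, and Cldn5 had no read in either. Only 4 of 10 endothelial markers were tested and none was called (Cdh5 at 0.40). Over all genes tested, 0.724% were called lower and 0.498% higher. Theca and stroma markers summed to 272 to 355 CPM and 298 to 306 CPM, most of it Col1a1. Of 8 tested, 1 was called, the small matrix proteoglycan gene Ogn, which fell by 0.78 on the log2 scale (adjusted p = 0.0230 from edgeR). Mural cell markers summed to 572 to 772 CPM and 509 to 589 CPM, with none of 7 tested called (Cspg4 at 0.59). Leukocyte, surface epithelium and oocyte markers each summed to at most 28.3 CPM. Of these lists only 3 of 10, 3 of 7 and 1 of 9 genes were tested. None was called (Lyz2 at 1.08, Krt19 at 0.44 and Gdf9 at -0.51). Of 9 granulosa markers tested, 1 was called, the inhibin gene Inha, which fell by 0.36 (adjusted p = 0.0430 from edgeR). Of 6 luteal markers tested, 1 was called, Ptgfr, which rose by 0.94 (adjusted p = 0.0156 from edgeR). The part of these changes in the Col4a3 and Col4a4 values was not tested.

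Side by side, the log2 fold changes of Col4a3 were -0.69 in EM against Con and -0.77 in EET against PBS, and those of Col4a4 were -1.02 and -0.66. These comparisons share no library. Both genes thus had lower values in the EM mice than in sham-operated mice and lower values again after EET than with PBS, of which the latter passed the test.

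Cultured and fresh EM-mGCs were compared to place the levels of both experiments on 1 scale. This comparison shares the EM-mGC libraries with that of EM against Con and the PBS libraries with that of EET against PBS, and culture, experiment and sequencing run cannot be told apart in it. All 6 chains rose, where 31.1% of 17301 genes were called higher and 37.9% lower, and where 32.2% lay higher and 34.2% lower without overlap. Col4a1 was at 397 to 832 CPM in EM-mGC and at 6049.7 to 6895 CPM in PBS libraries, 10.8-fold higher (log2 fold change 3.43, SE 0.25, adjusted p = 2.6e-06 from edgeR). Col4a2 was 10.7-fold higher (log2 fold change 3.42, SE 0.27). Both genes of the common trimer thus rose by nearly the same factor.

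The rarer chains rose by 4.28-fold to 8.86-fold. Col4a3 was at 2.60 to 3.99 CPM in EM-mGC and at 26.7 to 32.9 CPM in PBS libraries (log2 fold change 3.15, SE 0.18, 8.86-fold), and its head-to-head partner Col4a4 at 5.66 to 9.74 and 28.9 to 34.0 CPM (2.10, SE 0.18, 4.30-fold). Col4a6 was 6.96-fold higher (2.80, SE 0.23), with 22.9 to 54.3 CPM in EM-mGC and 238 to 302 CPM in PBS libraries. Col4a5 was 4.28-fold higher (2.10, SE 0.16), with 82.5 to 134 and 471 to 528 CPM. None of the 6 chains overlapped between the groups, and the adjusted p ranged from 6.5e-07 to 5.7e-06 with edgeR. The median log2 fold change of the 6 chains was 2.97, beside -0.11 over all genes tested. Col4a1 and Col4a2 differed by far less than their standard errors, so the order of these 2 is not resolved.

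The order of the groups by mean CPM differed between the chains. For Col4a3 it was PBS, EET, Con-mGC and EM-mGC, with no overlap between neighbours. Col4a4 had the same order, but its EET and Con-mGC libraries overlapped, at 16.1 to 21.4 and 11.3 to 17.6 CPM. For Col4a1, Col4a5 and Col4a6 the order was EET, PBS, Con-mGC and EM-mGC, and for Col4a2 it was EET, PBS, EM-mGC and Con-mGC. In these 4 chains EET overlapped with PBS and Con-mGC with EM-mGC.

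Collagen-modifying genes mostly rose in cultured cells too. Of 23 tested, 15 rose and 2 fell (median log2 fold change 0.53). Among all genes tested, 31.1% were called higher and 37.9% lower. The largest rises were those of P3h2, which hydroxylates prolines of collagen IV (4.42), P4ha3, a prolyl hydroxylase subunit (3.08), and Serpinh1, the collagen chaperone Hsp47 (2.28, from a mean of 582 to 2865 CPM). Colgalt2, a collagen galactosyltransferase, and the lysyl hydroxylase gene Plod1 fell by 5.54 and 0.71. Basement membrane partners went both ways, 9 rising and 10 falling of 21. Tinagl1 (4.70), the perlecan gene Hspg2 (2.36) and the collagen-binding gene Sparc (1.91) rose most, and Smoc2 (-7.53), Lamc3 (-5.46) and Lama2 (-4.68), the last 2 being laminin chains, fell most.

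Receptors, breakdown enzymes and inhibitors were mixed, where 31.1% of all genes tested were called higher and 37.9% lower. Of 11 receptors 2 rose, the collagen receptor kinase gene Ddr1 (3.69, from 71.1 to 934 CPM) and the integrin gene Itgb1 (0.87), and 5 fell, among them Lair1 (-5.61), Adgrg6 (-2.37) and Itga10 (-0.93). Of 11 breakdown enzymes 4 rose and 5 fell. The membrane-bound metalloproteinase genes Mmp24 (5.72, at 3.16 CPM in PBS libraries), Mmp16 (2.74) and Mmp14 (1.44) rose, and the cathepsin gene Ctss (-7.19), Mmp9 (-6.65) and Mmp12 (-2.05), all known from leukocytes, fell. Among the inhibitors, Timp3 (3.05) and Timp2 (1.58) rose, and Timp4 (-1.52) and Reck (-1.28) fell. Each of these calls had an adjusted p under 0.05 from edgeR.

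Most markers of the other cell types fell, with exceptions among stroma and mural cell genes, where 37.9% of all genes tested were called lower. All 10 endothelial markers fell (median -5.78), and Cldn5, Emcn and Tie1 had at most 0.164 CPM in a PBS library. Of theca and stroma markers 9 of 10 fell (median -4.21), led by the theca enzyme gene Cyp17a1 (-12.43), Lum (-6.86) and Dcn (-6.02), while Col1a1 was at 0.30. Of 8 mural cell markers 6 fell, led by Rgs5 (-9.35), Des (-3.63) and Pdgfrb (-2.97). The smooth muscle actin gene Acta2 rose by 2.22, from a mean of 131 to 624 CPM, and Tagln was at 0.69. All 10 leukocyte markers fell (median -6.34), with no read of S100a8 or S100a9 in the PBS libraries and Itgam at a mean of 0.0139 CPM. All 7 surface epithelium markers fell (median -5.39), led by Cdh1 (-7.76), Muc16 (-7.33) and Krt19 (-5.87). All 8 tested oocyte markers fell, and Nlrp5, Oosp1 and Zp1 had no read in the PBS libraries, at least 585-fold lower for each by a floor of 3 counts over the group. In summed level, endothelial markers were at 113 to 212 CPM in EM-mGC and 5.82 to 7.25 CPM in PBS libraries, and leukocyte markers at 262 to 650.2 and 15.6 to 18.5 CPM. Theca and stroma markers were at 934 to 1598 and 272 to 355 CPM, and mural cell markers at 150.2 to 326 and 572 to 772 CPM, higher in the PBS libraries.

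Of the granulosa markers 10 of 11 fell, and of the luteal markers 4 of 7, where 37.9% of all genes tested were called lower. Cyp19a1 (-10.59), Amh (-7.46) and Fshr (-4.33) fell most among the former, and Lhcgr (-11.25), Ptgfr (-4.87) and Prlr (-3.73), all hormone receptor genes, among the latter. The granulosa marker Inhba (-0.01) and the luteal markers Star (-0.21), Cyp11a1 (-0.41) and Scarb1 (0.11) were not called. The part of cell makeup and of the lower granulosa and luteal markers in the rise of the chains was not tested.

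**Figure D3:**
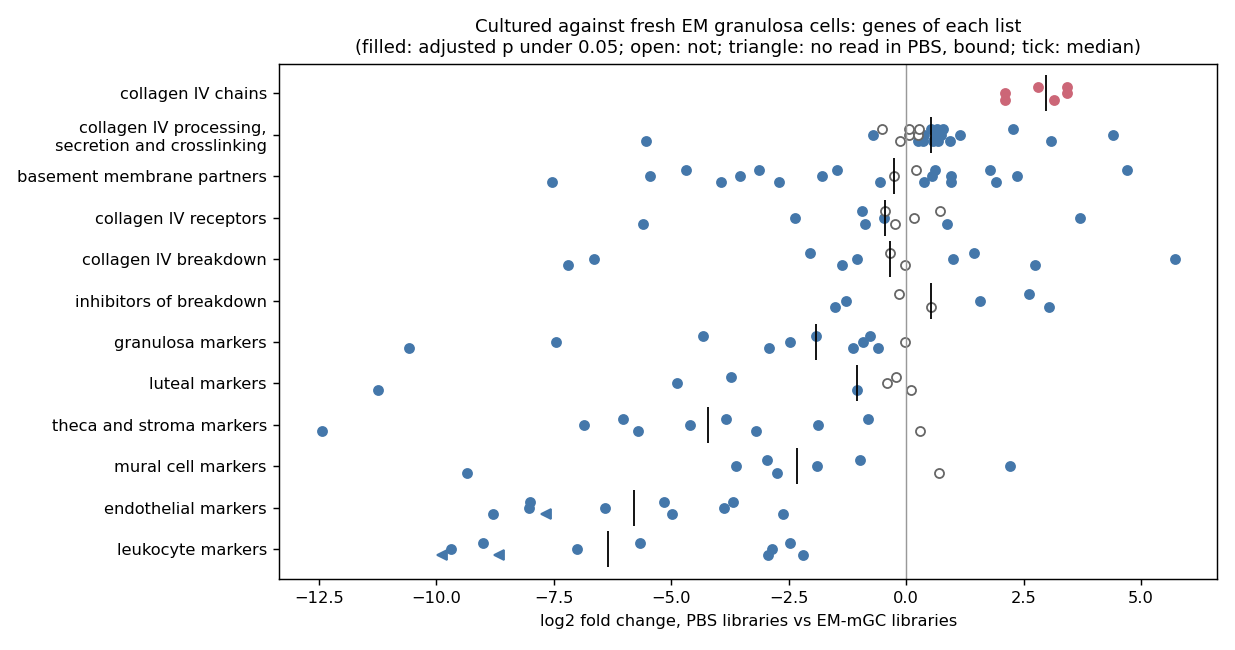
Log2 fold change of PBS against EM-mGC libraries (x axis) for the tested genes of each list drawn (points, filled for an adjusted p under 0.05 from edgeR), with the list median (tick) and triangles for genes with no read in PBS libraries, placed at the bound given by 3 counts. The surface epithelium and oocyte markers are not drawn. The 6 collagen IV chains lie between 2.10 and 3.43, and the endothelial and leukocyte markers all lie under 0.

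The ratio of head-to-head partners within a library needs no scaling between libraries. Per length, Col4a1 stood to Col4a2 at 1.67 ± 0.0803 in Con-mGC, 1.60 ± 0.128 in EM-mGC, 1.59 ± 0.0300 in PBS and 1.60 ± 0.00457 in EET libraries. Over all 16 libraries this ratio ran from 1.47 to 1.79, while the levels of both genes differed 10.8-fold and 10.7-fold between cultured and fresh EM cells. Col4a5 stood to Col4a6 at 3.56 ± 0.452 and 3.75 ± 0.610 in the fresh groups and at 2.23 ± 0.192 and 2.35 ± 0.0732 in PBS and EET libraries.

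Col4a3 and Col4a4, the pair with the fewest reads, had the least constant ratio. Per fresh library there were 38 to 136 reads of Col4a3 and 74 to 321 of Col4a4, and the part of sampling noise in the ratio was not tested. Col4a3 had 0.324 to 0.451 times the RPKM of Col4a4 in the Con libraries and 0.40 to 0.596 times in the EM libraries, which overlap, and 0.947 to 1.03 times in PBS and 0.774 to 1.08 times in EET libraries. The mean log2 ratio of their counts was 0.36 higher in EM than in Con (two-sided exact permutation test, p = 0.0397, adjusted p = 0.238 over 6 ratio tests). The other 2 pairs differed by -0.06 (exact permutation p = 0.357) and 0.07 (exact permutation p = 0.619) between EM and Con. Between EET and PBS the 3 ratios differed by 0.02, -0.10 and 0.08 in the order of the pairs, with exact permutation p from 0.4 to 0.6 where 0.1 is the smallest possible. No ratio passed after adjustment, and 5 libraries against 5 allow a p of 0.00794 at the least. The 3 tests of EET against PBS could not have passed, yet count among the 6 adjusted together. Both genes of the rare pair thus fell with EET, and this test cannot decide whether their ratio changed, as its smallest p is 0.1.

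**Figure D4:**
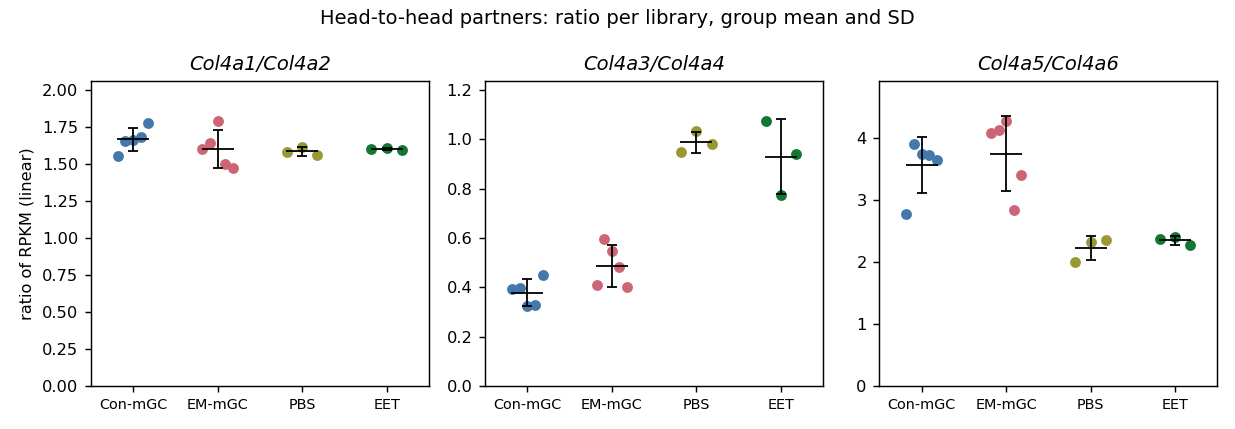
Ratio of the RPKM of head-to-head partners (linear axis from 0) in each library (points), with the group mean and SD (bars). The Col4a1 to Col4a2 ratio lies between 1.47 and 1.79 in all libraries, whereas the Col4a3 to Col4a4 ratio lies at 0.596 or less in fresh and at 0.774 or more in cultured libraries.

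Among the 10 fresh libraries, with the group means removed, the chains varied together to different degrees. These values are Pearson correlations of log2 CPM over 10 libraries that share their depth and scaling across genes, and are a description only. Col4a1 and Col4a2 had r = 0.974, Col4a5 and Col4a6 r = 0.80 and Col4a3 and Col4a4 r = 0.711. Between pairs, Col4a1 had r = 0.739 with Col4a6, 0.530 with Col4a5, 0.0128 with Col4a4 and -0.358 with Col4a3. The rare pair thus varied apart from the common chains from mouse to mouse, as far as counts of this size show.

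Out of 12922 genes compared, with the chains themselves left out of the ranking, those most like Col4a1 were Strbp (0.973), Lpin3 (0.971) and Map3k14 (0.969), and those most like Col4a2 were Igfbp5 (0.987), Mmp11 (0.979) and Actn1 (0.978). Col4a3 was most like Spocd1 (0.919), Dach1 (0.880) and Grip1 (0.855), and Col4a4 most like Tbc1d16 (0.935), Adar (0.905) and Zfp319 (0.900). For Col4a5 they were Ccdc141 (0.992), Rnf214 (0.986) and Ocrl (0.985), and for Col4a6 Thap3 (0.985), Eno3 (0.971) and Ezh1 (0.967). These are the top of a ranking over many genes and few libraries, and nothing follows from them about shared control.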

How the data were processed

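Poly(A) RNA of mGCs was sequenced in 16 libraries from both ends of each fragment with a stranded kit. Both deposited tables hold raw read counts per Ensembl gene, made by the authors with featureCounts. The submitters' processing notes name fastp, HISAT2, StringTie and GRCm39. Versions, the setting for strand and how shared reads were treated are not given in the sources used here. The study's methods name DESeq2. No column was unused (0 columns).

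Counts were analysed with R 4.3.3 and edgeR 4.0.16: filterByExpr with the group, TMM, quasi-likelihood tests and adjustment by Benjamini-Hochberg over all genes tested, with a gene called at an adjusted p under 0.05. EM against Con and EET against PBS were fitted within their own tables, and PBS against EM on joined counts. CPM use TMM factors over all 16 libraries. RPKM divide CPM by the exon length in kilobases, from GENCODE M21 on GRCm38, since no annotation of the build of the files was used here. Partner ratios used log2 of counts plus 0.5 and two-sided exact permutation tests (scipy 1.17.1), with 6 tests adjusted together. Steps were tested on simulated counts.

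The 6 chains, the lists and the named genes were chosen with earlier results of these data known. The lists cover collagen IV processing, basement membrane partners, receptors, breakdown, inhibitors, and granulosa, luteal, theca and stroma, endothelial, mural cell, leukocyte, surface epithelium and oocyte markers. From each list, up to 3 called genes were named at each end, or the one farthest from 0 where none was called, and the 3 genes most like each chain with a mean log2 CPM of at least 1. One gene that this rule names is not reported here. Alternatives were DESeq2 1.42.0, RLE scaling, no filter, at least 10 counts in every library, protein-coding genes only, a pseudocount of 1, the replicate number as a block and leaving out each library. Within each group, libraries differed beyond sampling noise (chi-square per degree of freedom 2.66 to 114), so none was counted as a duplicate. Replicates are separate mice in the fresh groups. In the cultured groups it is not stated which mice went into which library, and p-values measure only the spread between these libraries.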

Additional observations from a re-analysis of the deposited data

Results flagged for a closer look

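The ratio of Col4a5 to Col4a6 counts in Con-mGC-1 lay apart from the other Con libraries. On the log2 scale it was 1.22 there, against 1.62 to 1.72 in the other 4, and the gap to the nearest library was 0.803 of the whole range, above the limit of Dixon's test at the 95% level. Per length, Col4a5 stood at 2.77 times Col4a6 in that library, the level of EM-mGC-4 (2.84). In this library Col4a5 was at 83.4 CPM, the lowest of the Con group, and Col4a6 at 35.7 CPM. It is also the fresh library with the fewest genes detected (22071). Chance flags about 1 in 20 groups, and 18 groups of chain levels and ratios were examined.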

How the results depend on the processing

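Of 388 values under alternatives to 30 results, 362 were rated the same. For fold changes and ratios this means the same direction and side of the threshold. For counts of genes or chains called it means an equal count or one of like size. For EM against Con, 0 genes were called, against 1626 at an unadjusted p under 0.05, and the count was 116 with DESeq2, 4 with no filter, 2 with the replicate block and 0 to 46 with a library left out (46 without Con-mGC-3, 1 without EM-mGC-1). DESeq2 called 1 of the 6 chains, Col4a4, with an adjusted p between 0.00016 and 0.690 across settings, and no other setting called any. Col4a1 ran from -0.17 to 0.10 with a library left out and was above 0 when EM-mGC-2 (0.10), Con-mGC-3 (0.02), EM-mGC-3 (0.06) or Con-mGC-2 (0.01) was omitted. Col4a2 ran from -0.12 to 0.19 and turned negative without EM-mGC-4 (-0.12) and with the replicate block (-0.0022). For EET against PBS, 184 genes were called, 323 with DESeq2, 662 with no filter, 341 with the replicate block and 48 to 436 with a library left out: 48 without EET-3, 61 without EET-2, 122 without EET-1, 350 without PBS-1 and 436 without PBS-2. The number of chains called there was 2, or 1 without EET-3 and 3 with no filter. The cause was not tested, apart from the change in the genes and libraries used. All 6 chains were called in cultured against fresh cells under each alternative, with 8560 to 14355 genes called in all. The Col4a3 to Col4a4 ratio between EET and PBS ran from -0.21 to 0.03 with a library left out (0.0277 without EET-2), and the Col4a5 to Col4a6 ratio between EM and Con from -0.02 to 0.16 (-0.0211 without Con-mGC-1).

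The design calls the cultured replicates paired but does not say that equal numbers mark the pairs. Deviations from the group means correlated at 0.0890, 0.178 and -0.0473 between same-numbered cultured libraries and at -0.290 to 0.166 between fresh ones, which are separate mice, so the numbers were not used as pairs. With the replicate block the adjusted p of Col4a3 and Col4a4 for EET was 0.00267 and 0.00278 (edgeR), and the block changed the call of no chain. Counts of 38 to 66 reads limit the Col4a3 values of EM libraries.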
